A study of Mus musculus with 12 samples.

Results

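Thymic lymphomas expressing the MYC mutant T58A were compared gene by gene with control thymus. The comparison uses 6 of the 12 libraries of the series. The 3 control libraries came from thymic tissue labelled as expressing endogenous MYC only, and the 3 lymphoma libraries from thymic tissue labelled as expressing ectopic MYC T58A only. All 6 are labelled as T cell lymphocytes, and the lymphomas as spontaneous. Strain, age, sex and the promoter that drives the ectopic MYC were not stated in the labels, and neither was whether the libraries came from separate animals. The p-values therefore measure only the spread between libraries, which may be technical. Of 24478 gene symbols, each represented by its transcript with the most reads over the 12 libraries, 15606 passed the filter on low counts and were tested. The remaining 6 libraries, from S62A lymphoma and from thymic mass with splenomegaly in S62A mice, entered the statistical model to share one estimate of the spread, and S62A lymphoma was compared with T58A lymphoma once, at the end.

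MYC is a transcription factor that binds DNA together with its partner MAX, most strongly at the E-box sequence CACGTG, and raises the output of genes for ribosomes, translation and metabolism. The mutant T58A replaces a threonine, whose phosphorylation marks MYC for destruction, with alanine, and is a longer-lived protein found in human lymphomas. In the thymus, immature T cells rearrange their receptor genes under Notch signals from the epithelium, and those whose receptor is useful mature and leave. Thymic lymphomas arise from these cells and keep part of their programme.

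Reads assigned to genes ranged from 17339406 to 22437969 in the controls and from 16830893 to 18376634 in the lymphomas. Levels are given below as CPM, the reads of a gene relative to the scaled size of its library, in the order library 1, 2, 3. Library differences other than the labelled one were present. The title codes of controls 1 and 2 carry the letter G and those of control 3 and all 3 lymphomas the letter H, whose meaning was not stated. Controls 1 and 2 differed from each other by a chi-square per degree of freedom of 2.76, control 3 from them by 46.6 and 43.4, and the lymphomas from one another by 72.7 to 82.4, so that no pair agreed within sampling noise. Control 3 stood apart in summed adipocyte markers, at 1836 CPM against 133 and 205 CPM in controls 1 and 2. It also stood apart in the ribosomal RNA precursor Rn45s, which took 2.31% of its reads and 0.171% to 0.255% of those of the other 5 libraries. Summed pan-T cell markers were at 12190, 12150 and 12040 CPM in the controls and at 6762, 7415 and 6473 CPM in the lymphomas, so that the labelled cell type was present in all 6. Most of each lymphoma sum came from 1 marker, Tcf7, at 4623, 4765 and 3672 CPM there, which was not called. By edgeR's quasi-likelihood test, 0 of the 15 markers rose and 10 fell, against 18.8% and 17.4% of all genes tested. Their median log2 fold change was -1.83. In tissue of mixed cells, fewer cells of a type and less RNA per cell cannot be told apart, and this holds for every difference below.

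Myc was at 85.5, 79.9 and 82.9 CPM in the controls and at 158.5, 134 and 137 CPM in the lymphomas. All 3 lymphomas lay above all 3 controls, and the log2 fold change was 0.79 ± 0.13 (± SE; adjusted p = 8.76e-04, edgeR's quasi-likelihood test, as for every adjusted p below). The gene lies on chromosome 15 at chr15:61816896-61821916 in the mm9 build. Whether reads of the ectopic transcript were counted here was not given, so that the value checks the label only in part. Of 20 tested genes of the MYC network, the partners and antagonists that share its binding sites, 4 rose and 7 fell, with a median log2 fold change of -0.27. Ruvbl1, a helicase that acts with MYC, rose by 1.32 on the log2 scale, while Mxd3, a MAX partner that represses, fell by 1.78 and Max itself differed by 0.05.

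Over the whole transcriptome, 5646 of the 15606 tested genes (36.2%) passed an adjusted p of 0.05. Of these, 2938 (18.8%) were higher and 2708 (17.4%) lower in the lymphomas, and 3270 (21%) changed at least 2-fold, 1643 (10.5%) upwards and 1627 (10.4%) downwards. Without adjustment 7222 genes (46.3%) had a p under 0.05. In 9369 genes (60%) the ranges of the 2 groups did not overlap. The median log2 fold change over all genes was 0.01, and lists of genes below are read against this median and against the shares of 18.8% and 17.4%. The 4 libraries with the letter H in their titles gave by themselves 1320 calls, the control group there being 1 library.

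The changes were large for many genes. Among the risen genes, 1295 changed by less than 1 on the log2 scale, 876 by 1 to 2, 552 by 2 to 4, 137 by 4 to 6 and 78 by 6 or more. Among the fallen genes the same classes held 1081, 787, 581, 164 and 95. A further 2187 genes (14%) were not called and had a 95% interval of the fold change that stayed within 1.5-fold in either direction, and for these the data bound the change from both sides. Calls grew more frequent with abundance and their balance shifted: of the 1494 genes averaging under 1 CPM, 5.29% rose and 9.91% fell, while of the 45 genes at 1000 CPM or more, 42.2% rose and 11.1% fell.

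**Figure D1:**
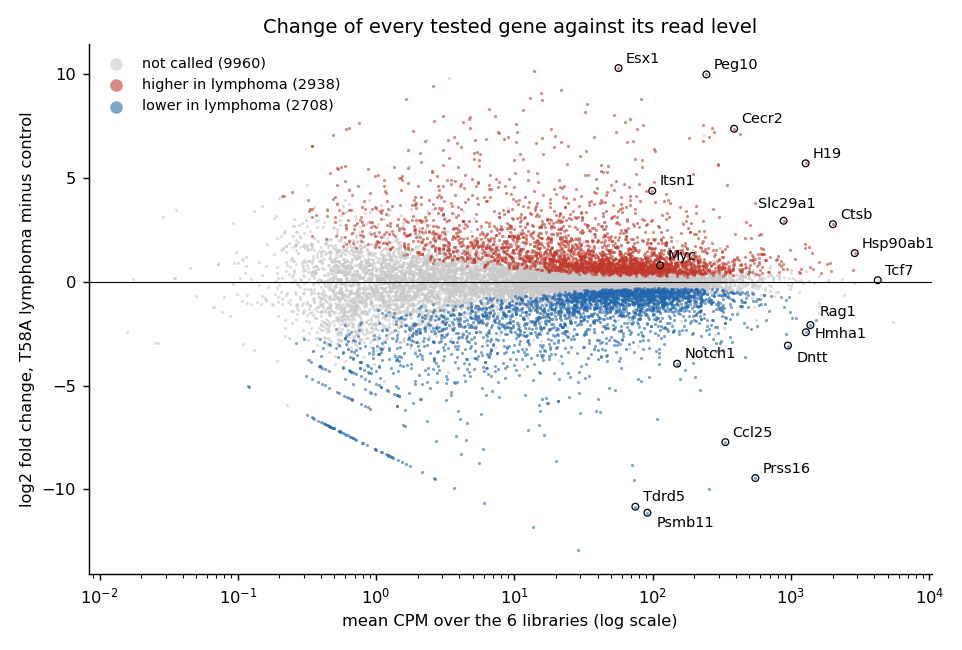
Log2 fold change of each of the 15606 tested genes (T58A lymphoma minus control, vertical axis) against its mean CPM over the 6 libraries (horizontal axis, log scale). Points in red were called higher (2938), points in blue lower (2708), and grey points were not called. The named points include Peg10, 9.98 log2 units higher, and Tdrd5, 10.83 lower. The line of blue points at the lower left holds genes with no read in the lymphomas, whose fitted fold change follows the prior count.

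Expressed per length of transcript (FPKM, fragments per kilobase of transcript, scaled to library size), the most abundant mRNAs of the controls included Tmsb4x, an actin-binding peptide (mean 3370 FPKM), the ribosomal protein genes Rpl8 and Rplp1, Pfn1, the T cell surface protein Thy1 (1940 FPKM), the T cell transcription factor Tcf7 (1890 FPKM) and Actb. In the lymphomas, 6 of the leading 8 were ribosomal protein genes, headed by Rpl8 at a mean of 3770 FPKM, and the other 2 were Tmsb4x at 3530 FPKM and the chaperone Hsp90ab1 at 2050 FPKM. Tcf7 had overlapping groups, at 4172, 4041 and 4178 CPM in the controls and 4623, 4765 and 3672 CPM in the lymphomas. Its log2 fold change was 0.08 ± 0.17 (adjusted p = 0.76). Actb was likewise not called, at a log2 fold change of -0.05. The 100 most abundant genes took 12.85% of reads in the controls and 13.67% in the lymphomas on average (two-sided exact permutation p = 0.4, where 3 against 3 allows no p under 0.1).

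Genes detected at 1 CPM or more numbered 13932, 13941 and 13959 in the controls and 13398, 13762 and 13629 in the lymphomas, with no overlap between the groups (exact permutation p = 0.1). Both groups shared 12319 genes at that level in every library. A further 380 genes reached it in every control and in no lymphoma, and 216 the reverse. No read at all was found in any lymphoma for 69 tested genes, of which 65 were called, and in any control for 11, of which 8 were called.

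The genes with no read in any lymphoma were led by Ptcra, the partner chain of the pre-T cell receptor. It had 3465 reads in the controls and 0 in the lymphomas, which makes it at least 1040-fold lower against a floor of 3 counts over the 3 libraries. Slc6a19, a transporter of neutral amino acids, stood at 27.4, 26.9 and 26.9 CPM in the controls and was at least 491-fold lower. Fam163b was at least 217-fold lower, Sptssb, a subunit of the enzyme that starts sphingolipid synthesis, at least 134-fold, and Prr32 at least 95.5-fold. Of the genes with no read in any control, Rubie, a non-coding RNA, at 0.693, 2.29 and 1.5 CPM in the lymphomas was at least 30.1-fold higher, and Fthl17a, a ferritin-like gene, at 2.02, 1.28 and 0.518 CPM at least 25.2-fold higher.

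The largest gains in reads were in genes of quite different function. Ctsb, a lysosomal protease, was at 462, 508 and 570 CPM in the controls and at 2928, 3252 and 4347 CPM in the lymphomas, a log2 fold change of 2.77 ± 0.30 (adjusted p = 7.12e-05). Hsp90ab1 rose from 1652, 1659 and 1513 CPM to 4469, 3887 and 4186 CPM (1.38 ± 0.13). In both genes the groups were far apart relative to the spread within them. H19, an imprinted non-coding RNA of fetal tissue, behaved differently: it was at 60, 57.2 and 27.1 CPM in the controls and at 5792, 741 and 989 CPM in the lymphomas (5.70 ± 1.39, adjusted p = 0.00881), with lymphoma 1 well above the other two. Slc29a1, a nucleoside transporter, rose from between 197 and 212 CPM to 1741, 1066 and 1890 CPM (2.94 ± 0.31). Further genes among the 15 with the largest gains were the RNA-binding protein genes Serbp1 (1.61 ± 0.18) and Ncl (1.39 ± 0.18), the lipoprotein gene Apoe (1.67 ± 0.26), the nuclear RNA Malat1 (1.81 ± 0.29) and the ribosomal protein gene Rpl4 (0.91 ± 0.12). Eef2, the elongation factor that moves the ribosome along, was also among them with a log2 fold change of 0.57, but without 1 of the controls or lymphoma 1 its adjusted p lay between 0.0569 and 0.0702.

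The largest losses in reads included several T cell genes. Hmha1, a GTPase-activating protein of blood cells, was at 2111, 2118 and 2267 CPM in the controls and at 394, 403 and 408 CPM in the lymphomas, a narrow band in each group and a log2 fold change of -2.43 ± 0.13 (adjusted p = 1.93e-06). Rag1, a subunit of the enzyme that cuts receptor genes for rearrangement, fell from 2136, 2148 and 2430 CPM to 633, 431 and 518 CPM (-2.09 ± 0.34). Dntt, which adds bases at the cut ends, was at 1668, 1664 and 1767 CPM in the controls and at 448, 93 and 65.6 CPM in the lymphomas. Lymphoma 1 kept the most, the log2 fold change was -3.07 ± 0.86 (adjusted p = 0.0173), and the call was lost without lymphoma 2 (adjusted p = 0.055) or lymphoma 3 (0.0511). Others of this set were the protease gene Ctsl (-2.53 ± 0.38), the actin regulator Coro1a (-1.76 ± 0.27), the D-type cyclin Ccnd3 (-1.44 ± 0.34), the thymic homing receptor Ccr9 (-3.61 ± 0.73), Arhgef1 (-1.85 ± 0.11), the histone deacetylase Hdac7 (-2.15 ± 0.16) and Rcsd1 (-2.25 ± 0.35). Ctsb and Ctsl, proteases of one family, thus moved in opposite directions, each by more than 4-fold.

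**Figure D2:**
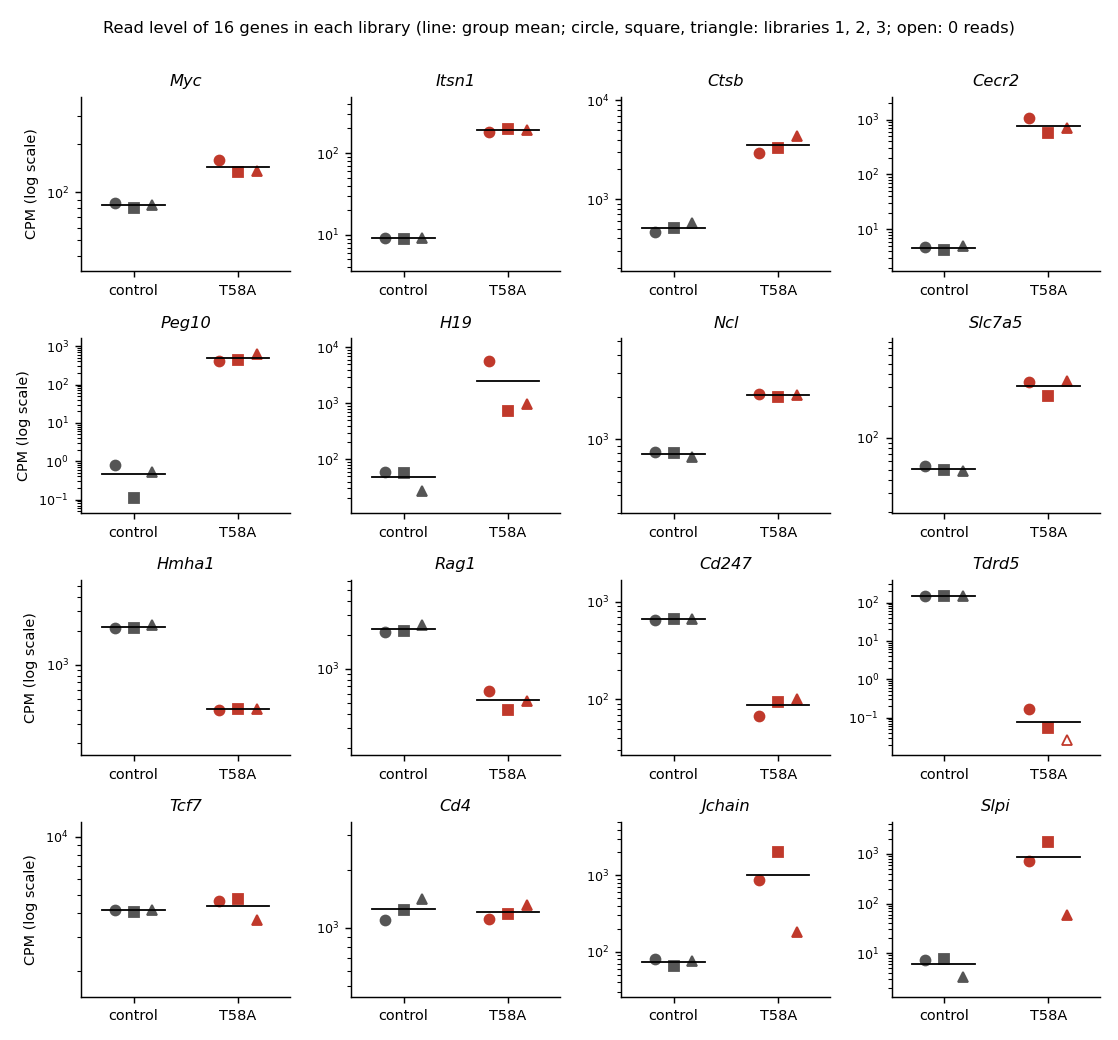
CPM of 16 genes in each of the 6 libraries (vertical axes, log scale, 1 panel a gene), with controls in grey, T58A lymphomas in red, circles, squares and triangles for libraries 1, 2 and 3, lines at group means and open symbols for 0 reads. Itsn1, Hmha1 and Cd247 show tight groups far apart, Tcf7 and Cd4 overlapping groups, and H19, Jchain and Slpi wide scatter among the lymphomas.

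Among the genes with the smallest adjusted p the groups lay far apart. Itsn1, a scaffold protein of endocytosis, was at 9.13, 8.93 and 9.23 CPM in the controls and at 182, 196 and 190 CPM in the lymphomas (4.38 ± 0.15, adjusted p = 8.4e-08). Ism1, a secreted antagonist of blood vessel growth, went from 0.413, 0.661 and 0.693 CPM to 157, 75.8 and 142 CPM (7.70 ± 0.35), and Cecr2, a bromodomain chromatin factor, from 4.7, 4.3 and 4.98 CPM to 1044, 562 and 710 CPM (7.37 ± 0.42). In both the lymphomas differed among themselves, but by far less than they differed from the controls. Stra6, the receptor for the retinol-binding protein, rose by 5.57 ± 0.27, Phlda1 by 4.64 ± 0.27, Ak5, an adenylate kinase usually of brain, by 7.23 ± 0.45, the opsin gene Opn3 by 4.64 and Ryk, a receptor for Wnt proteins, by 2.58 ± 0.16. Nkd1, which rose by 6.94 ± 0.40, is returned to with the Wnt pathway.

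Among the fallen genes of smallest p was Rgs14, a regulator of G protein signalling, at 166, 179 and 182 CPM in the controls and 33.8, 32.9 and 28.6 CPM in the lymphomas (-2.47 ± 0.11, adjusted p = 4.36e-07). Tdrd5, a Tudor domain gene best known from the germ line, went from 152, 147 and 150 CPM to 0.173, 0.0533 and 0 CPM (-10.83 ± 0.55), that is, from a clear signal to almost no reads. Abcc5, an export pump, fell by 2.35 on the log2 scale, and Fam193b went from 509, 524 and 560 CPM to 142, 135 and 121 CPM.

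Genes of ribosome assembly rose almost as a body. Of 36 tested, 30 rose and 2 fell, with a median log2 fold change of 1.05 against 0.01 for all genes. Tsr1, an assembly factor of the small subunit, was at 73.8, 68.7 and 66.5 CPM in the controls and at 382, 296 and 355 CPM in the lymphomas (2.30 ± 0.23, adjusted p = 4.51e-05). Mrto4, which prepares the large subunit for its stalk, went from 26.1, 27.9 and 23.8 CPM to 79.5, 71.6 and 72.1 CPM (1.52 ± 0.15). Polr1a, the largest subunit of RNA polymerase I, which transcribes ribosomal RNA, rose by 1.85 ± 0.20, the nucleolar chaperone Npm1 by 1.43 ± 0.16, Pes1 by 1.17 ± 0.10 and Ltv1 by 1.09 ± 0.11. In each of these the lymphomas lay wholly above the controls. The 2 that fell were Ubtf, a factor of the same polymerase (-0.37), and Bysl, an assembly factor of the small subunit (-0.80). Both calls were lost on leaving out control 1 or control 2, and the count then stood at 0. That of Ubtf was also lost without lymphoma 3 and that of Bysl without lymphoma 1 or 2.

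The machinery of translation followed the same direction. Of 20 cytosolic aminoacyl tRNA synthetases, which charge tRNAs with amino acids, 14 rose and 0 fell (median 0.68). Nars, for asparagine, was at 125, 121 and 117 CPM in the controls and 241, 228 and 250 CPM in the lymphomas (0.99 ± 0.11), and Gars, for glycine, rose by 1.22 ± 0.19. Of 27 initiation and elongation factors, 23 rose and 0 fell (median 0.68). Eif5a went from 533, 520 and 489 CPM to 1050, 1084 and 1011 CPM (1.03 ± 0.11) and Eef1b2 from 448, 424 and 404 CPM to 1019, 1081 and 859 CPM (1.21 ± 0.12). In both factors the lymphomas lay wholly above the controls with little scatter. In both lists 0 members were lower by edgeR, also at an unadjusted p under 0.05, and 0 by DESeq2 or voom.

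Cytosolic ribosomal protein genes took 1.358%, 1.312% and 1.221% of reads in the controls and 2.182%, 2.446% and 2.23% in the lymphomas, without overlap (exact permutation p = 0.1). Of 76 tested, 41 rose and 1 fell, the median log2 fold change being 0.87. Rpl23 was at 116, 110 and 108 CPM in the controls and 326, 302 and 262 CPM in the lymphomas (1.42 ± 0.11) and Rpl32 rose by 1.59 ± 0.13. How reads shared with processed pseudogene copies were counted was not given, and Gapdh, which has many such copies, stood at only 0.736 to 1.05 CPM in the controls, so that single genes of this family are uncertain. The genes of mitochondrial ribosomal proteins moved less, with 24 higher and 4 lower of 75 (median 0.25), with 15 higher without control 1 or control 2 and 0 to 2 lower without any 1 library. Host genes of small nucleolar RNAs, which guide the modification of ribosomal RNA, gave 9 higher and 1 lower of 16 (median 0.95). Among them Snhg8 went from 42.2, 45.6 and 42.6 CPM to 84.5, 86.7 and 84 CPM (0.97 ± 0.11), while Snhg11 fell from 46.1, 50.9 and 69.7 CPM to 1.1, 1.06 and 3.8 CPM (-4.80 ± 0.67). RNA polymerase subunit genes as a family gave 13 higher and 0 lower of 26 by edgeR, with 3 lower at an unadjusted p under 0.05, 2 lower by DESeq2 and 3 by voom.

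Promoter sequence was then set beside these groups. RefSeq promoters of the GRCm38.p6 build, each running from 250 bases before to 50 bases after a gene's listed start, were matched to 12198 of the 15606 tested genes (78.2%), so that shares below describe genes with a listed promoter only. The E-box CACGTG, which reads the same on both strands, occurred in 7.24% of all 27025 promoters of the table and in 9.55% of those of tested genes. It occurred in 11.9% of promoters of risen genes, 8.78% of fallen and 9.08% of uncalled genes. Among the risen genes the share was 14.3% where the change was under 2-fold and 9.95% where it was larger. By list it was 7 of 31 for ribosome assembly (22.6%), 4 of 13 for tRNA synthetases (30.8%) and 4 of 20 for translation factors (20%), against 1 of 26 for the T cell receptor group (3.85%). A match of letters is a description of the window and shows no binding.

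Of 25 risen ribosome assembly genes with a listed promoter, 7 held the E-box and 18 did not. The promoters of the 3 with the smallest adjusted p among the 7 show where it lies. Each is printed from its 5′ to its 3′ end with the CACGTG in capitals, and the gene's listed start follows the first 250 bases. Pes1 is at chr11:3963725-3964024 on the plus strand with the E-box at base 253, Tsr1 at chr11:74897830-74898129 on the plus strand with the E-box at base 275, and Ltv1 at chr10:13193088-13193387 on the minus strand with the E-box at base 279, all in GRCm38.p6. In these 3 the E-box lies downstream of the listed start, and among all 7 the first E-box lies downstream in 5 and upstream in 2.
Pes1: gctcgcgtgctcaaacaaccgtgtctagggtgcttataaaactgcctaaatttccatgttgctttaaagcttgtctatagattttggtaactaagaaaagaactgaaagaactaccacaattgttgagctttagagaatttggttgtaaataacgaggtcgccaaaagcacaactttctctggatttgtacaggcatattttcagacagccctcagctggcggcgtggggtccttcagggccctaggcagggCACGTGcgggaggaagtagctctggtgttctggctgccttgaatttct
Tsr1: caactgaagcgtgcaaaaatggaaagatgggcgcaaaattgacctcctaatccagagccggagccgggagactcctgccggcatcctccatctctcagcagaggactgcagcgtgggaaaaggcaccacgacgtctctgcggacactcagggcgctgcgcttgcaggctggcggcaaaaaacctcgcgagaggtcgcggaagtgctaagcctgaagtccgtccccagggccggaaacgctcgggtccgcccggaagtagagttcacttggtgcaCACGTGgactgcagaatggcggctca
Ltv1: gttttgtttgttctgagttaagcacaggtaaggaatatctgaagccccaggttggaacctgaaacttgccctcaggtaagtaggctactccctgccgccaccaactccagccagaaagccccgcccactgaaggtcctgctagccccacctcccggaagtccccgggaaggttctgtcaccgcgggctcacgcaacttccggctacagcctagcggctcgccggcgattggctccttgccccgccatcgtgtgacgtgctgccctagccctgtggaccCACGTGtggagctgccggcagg

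Other words gave a different picture. CACCTG is a related E-box, also read as CAGGTG on the other strand and bound by E proteins in lymphocytes. It occurred in 20% of all promoters, in 18.4% of those of tested genes, in 15.3% of risen, 22.2% of fallen and 18.3% of uncalled genes. For the T cell receptor group it was 11 of 26 (42.3%). The 4 words TTTGGCGC, TTTCCCGC, TTTGCCGC and TTTCGCGC, typical of E2F sites and searched on both strands, occurred in 3.35% of risen, 3.48% of fallen and 4.09% of uncalled genes (2.32% of all promoters). GATTGGC, the core of NF-Y sites, likewise on both strands, occurred in 9.03%, 10.8% and 10% of these sets (7.15% of all promoters). The windows of 2 T cell receptor genes that fell, Cd247 and Lck, are shown in the next paragraph. They were chosen by adjusted p among the fallen members whose window holds CACCTG. Each holds this related E-box once, read here as CAGGTG and printed in capitals. How many fallen members of the group lack it was not counted.

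Cd247 encodes the zeta chain that passes the receptor's signal on, and Lck the kinase that starts it. Their GRCm38.p6 windows are chr1:165788431-165788730 on the plus strand, with the word at base 241, and chr4:129573592-129573891 on the minus strand, with the word at base 274, the Lck window being one of 2 listed starts.
Cd247: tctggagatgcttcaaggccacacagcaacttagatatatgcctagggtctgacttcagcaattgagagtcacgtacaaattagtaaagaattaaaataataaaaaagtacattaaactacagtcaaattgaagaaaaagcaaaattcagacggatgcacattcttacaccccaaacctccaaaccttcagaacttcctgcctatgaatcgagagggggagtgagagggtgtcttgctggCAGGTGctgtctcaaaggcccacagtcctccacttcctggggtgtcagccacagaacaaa
Lck: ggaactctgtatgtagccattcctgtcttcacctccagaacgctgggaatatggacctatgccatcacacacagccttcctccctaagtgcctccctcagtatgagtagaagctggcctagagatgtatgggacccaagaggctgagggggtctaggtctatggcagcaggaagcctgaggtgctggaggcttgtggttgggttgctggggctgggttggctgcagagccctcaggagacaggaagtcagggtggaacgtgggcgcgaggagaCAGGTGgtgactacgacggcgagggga

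Protein folding and turnover genes were mostly higher. Of 30 chaperone genes, 22 rose and 2 fell (median 0.76), with 1 fallen without control 2 or lymphoma 2. Beside Hsp90ab1, Cct8, a subunit of the chaperonin that folds actin and tubulin, went from 349, 332 and 306 CPM to 932, 776 and 766 CPM (1.32 ± 0.13), and Hspa5, the main chaperone of the endoplasmic reticulum, rose by 1.18. The heat-inducible co-chaperone Dnajb1 moved the other way, from 196, 214 and 162 CPM to 95.1, 77.3 and 58.5 CPM (-1.31 ± 0.18). Of 39 proteasome genes, 20 rose and 4 fell (13 rose without control 3). The core subunit Psma4 went from 92.5, 83.6 and 77.2 CPM to 175, 214 and 231 CPM (1.29 ± 0.15). Of the 4 that fell, 3 were the catalytic subunits of the immunoproteasome, Psmb8 (-1.21), Psmb9 (-1.61 ± 0.23) and Psmb10 (-1.68), and the fourth was Psmb11 (-11.12), the thymus epithelial subunit.

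Of 31 lysosomal genes, 19 rose and 3 fell (median 0.74). Cd63, a membrane protein of late endosomes, went from 20.9, 21.9 and 18.4 CPM to 55.1, 78.2 and 62.9 CPM (1.68 ± 0.18). Lamp2 rose from between 166 and 182 CPM to 1069, 718 and 466 CPM (2.12 ± 0.34), and Tfeb, the transcription factor that drives lysosome genes, by 1.75. The 3 that fell were Ctsl, Npc1 (-0.77) and Lipa (-0.79), the last of which lost its call without any 1 control or lymphoma 3 (adjusted p from 0.0677 to 0.0937). Macrophages are rich in lysosomes, and their summed markers moved with this list, from 666 to 784 CPM in the controls to 2261 to 3687 CPM in the lymphomas with 14 of 19 markers risen; their part in the lysosomal result was not tested.

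Amino acid and one-carbon metabolism gave 16 higher and 3 lower of 28 (median 0.68), with 10 higher without control 2 and 1 lower without control 1, control 3, lymphoma 1 or lymphoma 3. Bcat1, which transfers the amino group of branched amino acids, went from 14.3, 14.7 and 16.4 CPM to 105, 93.3 and 147 CPM (2.93 ± 0.50). The transporter Slc7a5, its partner in supply, rose by 2.61 and Got1 by 1.62 ± 0.16, while Psph, the last enzyme of serine synthesis, fell from 42.4, 43.8 and 38.9 CPM to 19.7, 19.9 and 17.4 CPM (-1.13). Nucleotide synthesis gave 13 higher and 3 lower of 26 (median 0.48), with 1 lower without control 2. Atic, of purine synthesis, went from 115, 113 and 107 CPM to 310, 260 and 270 CPM (1.33 ± 0.12) and Cad, of pyrimidine synthesis, rose by 1.32 ± 0.20. Prps2, one of the enzymes that make their shared ribose precursor, went from 315, 288 and 297 CPM to 87.1, 78.1 and 60.3 CPM (adjusted p = 5.83e-06), so that the pathway did not move as one.

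Glycolysis genes gave 8 higher and 2 lower of 23 (median 0.41), and 4 or 5 higher without control 1, 2 or 3 or lymphoma 1 or 3. Tpi1 rose from 100, 99.5 and 113 CPM to 278, 228 and 277 CPM (1.32 ± 0.15). The hexokinase gene Hk1, at the entry of the pathway, went the other way, from 109, 107 and 104 CPM to 55.1, 57.4 and 57.9 CPM (-0.90 ± 0.12). The citric acid cycle gave 3 higher and 2 lower of 22, complex I subunits 4 and 5 of 36, cytochrome c oxidase subunits 2 and 2 of 13, and ATP synthase subunits 0 and 0 of 16 by edgeR (0 at an unadjusted p under 0.05, 0 by DESeq2 and 1 higher by voom). These respiratory groups lay under the shares of all genes, and leaving out a library gave between 0 and 6 calls in a direction, the 6 being rises of citric acid cycle genes without control 3. In the response to amino acid shortage and unfolded protein, 13 rose and 3 fell of 27, with 6 or 7 higher without control 1, 2 or 3 or lymphoma 2 and 1 lower without control 1 or lymphoma 3.

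Few cell cycle genes were called. The summed mitosis genes were nonetheless lower, at 6058, 5977 and 5658 CPM in the controls and 4822, 5116 and 4472 CPM in the lymphomas. The summed replication genes overlapped, at 4179, 4134 and 3649 CPM in the controls and 3766, 4345 and 4060 CPM in the lymphomas. DNA replication gave 1 higher and 4 lower of 34 (median -0.01) and mitosis 1 higher and 5 lower of 32 (median -0.23), so that fewer members were called than among all genes. The 4 fallen replication genes dropped to 1 without control 1 or control 2 and to 2 without lymphoma 1 or lymphoma 3, and the 5 fallen mitotic genes to 3 without control 1, control 2, lymphoma 1 or lymphoma 3. Mki67, the usual mark of proliferation, was at 741, 704 and 762 CPM in the controls and 523, 476 and 417 CPM in the lymphomas (-0.64, adjusted p = 0.074). The exceptions on the upper side were Ccnb1, the mitotic cyclin, from 77.9, 78.4 and 65.6 CPM to 269, 308 and 236 CPM (1.87 ± 0.13), and Rpa1, which coats single-stranded DNA, from 260, 258 and 229 CPM to 467, 789 and 455 CPM (1.20 ± 0.23). Prc1, which bundles the spindle midzone, fell by 0.98.

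Of the 7 Cdkn1 and Cdkn2 genes, which encode inhibitors of cyclin-dependent kinases and were counted together after their values were seen, 2 rose, 2 fell and 3 were not called. Cdkn1a, the p53 target p21, was at 27.6, 28 and 35.9 CPM in the controls and at 431, 224 and 499 CPM in the lymphomas (3.66 ± 0.41). Cdkn2a, the Ink4a and Arf locus, went from 2.43, 1.71 and 1.47 CPM to 32.1, 16.5 and 20.5 CPM (3.62 ± 0.61). Those that fell were Cdkn2c (-0.87) and Cdkn2d (-1.61). The other p53 targets did not follow one direction: of 27, 7 rose and 5 fell, against 18.8% and 17.4% of all genes. Ddb2 fell from 94, 93.3 and 85.1 CPM to 28.6, 39.5 and 22.3 CPM (-1.59) and the death receptor Fas by 2.13. The BCL2 family gave 4 higher and 3 lower of 20 (2 higher without control 3), near the shares of all genes. Bcl2, which protects from death, went from 94.7, 85.2 and 65.8 CPM to 20.3, 34.5 and 14.5 CPM (-1.83 ± 0.39), and Bmf, which promotes it, from 144, 128 and 215 CPM to 21.9, 23.9 and 24.3 CPM (-2.80 ± 0.28). The killer Bax rose by 1.06 and Bcl2l13 by 1.40. Of the 2 that fell and are named here, one protects from death and the other promotes it.

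T cell receptor genes fell or were not called. Of 36, 0 rose by edgeR and 14 fell (median -0.92), with 1 higher at an unadjusted p under 0.05, by DESeq2, by voom and without lymphoma 2. Cd247 was at 657, 666 and 666 CPM in the controls and 67.3, 95 and 101 CPM in the lymphomas (-2.92 ± 0.17, adjusted p = 2.78e-06), Lck at 2299, 2344 and 2443 CPM and 588, 629 and 774 CPM (-1.83 ± 0.15). Lat, the adaptor that Lck's partner kinase phosphorylates, fell by 1.40 and Nfatc1, the transcription factor at the end of the calcium branch, by 1.95. A coreceptor and a kinase differed from these. Cd4 was at 1103, 1244 and 1408 CPM and 1116, 1183 and 1315 CPM (-0.06 ± 0.31, adjusted p = 0.905), and Zap70, the kinase that docks on the zeta chain, at 211, 214 and 226 CPM and 195, 240 and 242 CPM (0.06). Within one signalling complex, the zeta chain and Lck were thus lower while Cd4 and Zap70 had overlapping groups.

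Of 20 genes of receptor gene recombination and the thymocyte checkpoint, 2 rose and 13 fell (median -1.44). Arpp21, a phosphoprotein typical of double-positive thymocytes, went from 428, 436 and 417 CPM to 7.33, 13.4 and 13.8 CPM (-5.21 ± 0.79), and Endou went up from 450, 431 and 636 CPM to 883, 838 and 1543 CPM (1.11). The other rise, of Xrcc5, was lost without any 1 control or lymphoma 1, which left 1 risen. In the Notch pathway, 1 rose and 13 fell of 31 (median -0.51). Notch1 was at 317, 305 and 225 CPM in the controls and 17.7, 20.2 and 17 CPM in the lymphomas (-3.94 ± 0.24), the ligand gene Jag2 fell by 2.22 ± 0.31, and Rfng, a glycosyltransferase that modifies Notch, by 1.13 ± 0.12. The single rise, of Psen2, was lost without any 1 control or lymphoma 1 or 2.

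Transcription factors of the T lineage gave 3 higher and 9 lower of 34 (1 higher without control 3 or lymphoma 3). Bcl11b, which fixes T cell identity, went from 655, 626 and 567 CPM to 237, 302 and 391 CPM (-0.99 ± 0.18), and Runx3 from 26, 22.5 and 23.6 CPM to 116, 105 and 83.2 CPM (2.07 ± 0.53). Genes of egress, homing and migration gave 4 higher and 13 lower of 30 (median -0.87), with 8 lower without lymphoma 3. Itgal, the integrin of T cell contacts, went from 494, 496 and 528 CPM to 67.6, 132 and 70.3 CPM (-2.49 ± 0.46). Cd44, a hyaluronan receptor of early and activated T cells, went the other way, from 31.1, 30.6 and 31.4 CPM to 134, 272 and 170 CPM (2.63 ± 0.47).

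The Wnt pathway gave 20 higher and 4 lower of 44 (median 1.13) and 13 higher without control 1. Canonical Wnt signals stabilise beta-catenin, which with TCF factors switches on its own inhibitors. Axin2, the standard readout of this loop, was at 31.5, 32.2 and 27.3 CPM in the controls and 297, 290 and 371 CPM in the lymphomas (3.39 ± 0.22, adjusted p = 3.98e-06). Nkd1, an inhibitor, went from 3.2, 2.92 and 2.81 CPM to 534, 335 and 227 CPM, and Apcdd1, a membrane inhibitor, from 4.13, 3.86 and 4.59 CPM to 320, 337 and 725 CPM (6.77 ± 0.74). All 3 were clear of the controls in every lymphoma. Znrf3, which clears Wnt receptors, rose by 2.14, the stem cell receptor Lgr5 by 6.74 and beta-catenin's own gene Ctnnb1 from between 555 and 575 CPM to 1031, 1159 and 1192 CPM (0.99 ± 0.13). The 4 that fell were Wnt4 (-3.56), the coreceptor Lrp5 (-1.28), Gsk3b (-0.59), the kinase that marks beta-catenin for destruction, and Wls (-1.03), which exports Wnt proteins and whose call was lost without any 1 of the 6 libraries (adjusted p from 0.0527 to 0.0747). The transcription factors themselves were not called, Tcf7 as above and Lef1 at -0.31.

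Pathways of the TGF beta family gave 11 higher and 4 lower of 34 (median 0.41). Bmp4, a ligand, was at 2.37, 2.09 and 2.77 CPM in the controls and 102, 99.1 and 237 CPM in the lymphomas (5.91 ± 0.95), its antagonist Fst rose by 6.38 and the receptor gene Bmpr1a by 1.63. Homeobox and other patterning genes gave 8 higher and 4 lower of 31 (5 higher without control 3). Barx1, a gene of stomach and tooth patterning, went from 0.929, 0.992 and 0.823 CPM to 261, 51.1 and 144 CPM (7.37 ± 0.73), and Cdx2, of the intestine, from 0.103, 0.22 and 0.13 CPM to 7.97, 6.02 and 2.01 CPM (5.09 ± 0.98). Pax1, of the thymic epithelium, fell by 3.66.

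Imprinted genes, of which only one parental copy is active, split likewise, with 8 higher and 3 lower of 31 (1 lower without any 1 control or lymphoma 3). Peg10, a retrotransposon-derived placental gene, was at 0.774, 0.11 and 0.52 CPM in the controls and 400, 431 and 636 CPM in the lymphomas (9.98 ± 1.46, adjusted p = 0.000484). Its neighbour Sgce, which shares its promoter region, rose by 3.24 ± 0.51. Grb10, a growth adaptor, was at 5.62, 7.33 and 9.36 CPM in the controls and at 63.1, 305 and 21.1 CPM in the lymphomas (4.12). Igf2, the growth factor paired with H19 at one imprinted locus, was at 3.97, 3.14 and 4.03 CPM and 1487, 50.4 and 116 CPM (7.21 ± 1.61, adjusted p = 0.0055). Lymphoma 1 was the highest by far for Igf2 as it was for H19, and lymphoma 2 for Grb10.

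Of 35 interferon response genes, 1 rose and 13 fell (median -0.94), and their summed level was 1870, 1930 and 1640 CPM in the controls and 1001, 1323 and 519 CPM in the lymphomas. Usp18, an interferon-induced protease, went from 42, 42.5 and 34.7 CPM to 7.74, 11.6 and 3.51 CPM (-2.38 ± 0.50), and Ifi47, a GTPase, fell by 1.75. Lymphoma 3 had the lowest summed level and the lowest level of Usp18. The 1 rise, of Iigp1, was lost without any 1 control or lymphoma 2, and without lymphoma 3 the count was 2. Among cytokine receptors and JAK-STAT genes, 4 rose and 14 fell of 39 (median -0.41; 9 fell without control 3). Ifngr1, a chain of the interferon gamma receptor, went from 529, 537 and 531 CPM to 124, 146 and 132 CPM (-1.99 ± 0.26), Il27ra fell by 1.99 ± 0.24 and Stat4 by 3.01 ± 0.54, while the feedback inhibitor Socs5 rose by 2.64 ± 0.65.

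Antigen presentation gave 3 higher and 9 lower of 20 (median -0.54). The peptide transporter gene Tap1 went from 228, 241 and 219 CPM to 85.5, 129 and 56.5 CPM (-1.35 ± 0.24), while B2m, the invariant chain of class I molecules, was at 1028, 1078 and 904 CPM and 889, 1424 and 427 CPM (-0.14 ± 0.32, adjusted p = 0.768). For Tap1 every lymphoma lay below every control, and for B2m the lymphomas lay on both sides of the controls. Of 46 tripartite motif genes, many of them antiviral ubiquitin ligases, 6 rose and 13 fell, among them Trim11 from 197, 196 and 221 CPM to 72.6, 71.7 and 78.3 CPM (-1.46 ± 0.10).

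Of 40 chromatin modifiers, 4 rose and 13 fell (median -0.36), with 1 or 2 higher when control 1, 2 or 3 or lymphoma 1 or 3 was left out. The histone deacetylase gene Hdac7, among the largest losses in reads above, is one of those that fell, while Bmi1, a subunit of the Polycomb repressor, went from 58.9, 57.4 and 48.9 CPM to 164, 117 and 169 CPM (1.45 ± 0.16). Of 36 channel genes, 6 rose and 12 fell. Orai2, a store-operated calcium channel, went from 117, 119 and 120 CPM to 17.8, 24.7 and 23.8 CPM (-2.42 ± 0.17) and Cacna1d, a voltage-gated one, from 36.1, 36.4 and 35 CPM to 316, 468 and 168 CPM (3.15 ± 0.55). Of 58 GTPase regulators of the Arhgap and Arhgef families, 7 rose and 21 fell, with 3 or 4 risen without any 1 control. Arhgap4, of blood cells, fell by 2.10 ± 0.20, while Arhgap29, better known from blood vessels, went from 9.91, 8.93 and 11.8 CPM to 77.7, 72.3 and 61.8 CPM (2.79 ± 0.20). Zinc finger (Zfp) genes gave 32 higher and 56 lower of 352 (32 lower without control 1 and 35 without control 2), a smaller share of rises than among all genes. Solute carriers gave 48 higher and 54 lower of 258, near the shares of all genes.

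**Figure D3:**
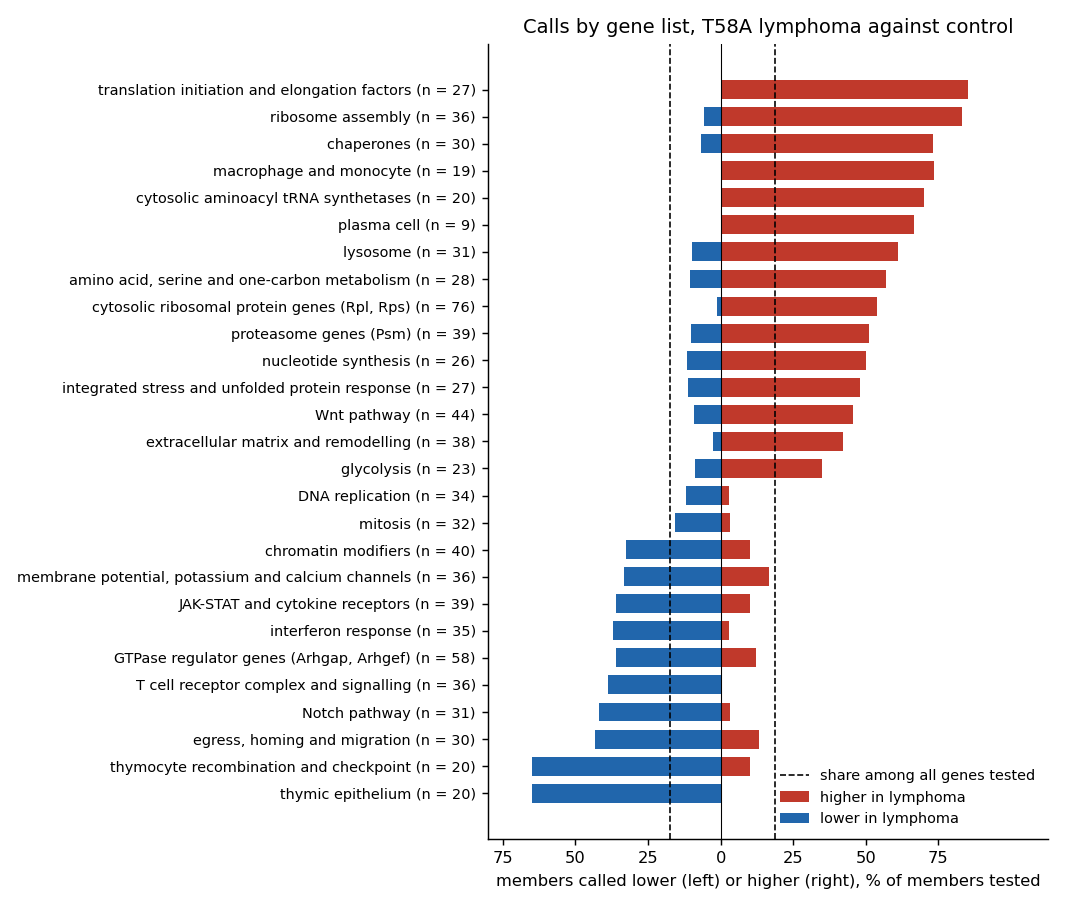
Members called higher (red, to the right) and lower (blue, to the left) in T58A lymphoma, as a percentage of the members tested (n in brackets), for 27 gene lists. Dashed lines mark the shares among all 15606 genes, 18.8% higher and 17.4% lower; of the lists drawn, translation and ribosome assembly reach furthest to the right, and recombination and thymic epithelium furthest to the left.

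Markers of other cell types differed as well. Of 20 thymic epithelial markers, 0 rose and 13 fell (median -2.92), and their sum went from 3884, 3779 and 3539 CPM to 205, 260 and 306 CPM. Tbata, a gene of this epithelium, was at 531, 488 and 520 CPM in the controls and 0.116, 1.17 and 0.173 CPM in the lymphomas (-9.98 ± 0.74), and Foxn1, the factor on which the epithelium depends, went from 40.3, 37.3 and 24.1 CPM to 0.346, 1.06 and 0.345 CPM (-5.83 ± 0.98). The cortical keratin Krt8 fell by 4.57 ± 0.64, whereas Krt14, of the medulla, was not called (-0.18). By edgeR at an unadjusted p under 0.05, by DESeq2 and by voom 0 epithelial markers were higher, and likewise 0 of the macrophage and B cell markers below were lower. Several genes of other lists above, among them Psmb11, Pax1 and Dll4, also belong to this list. Its part in their results was not tested.

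Macrophage markers were higher, with 14 of 19 risen and 0 fallen (median 1.62) and sums of 734, 784 and 666 CPM in the controls and 3687, 3147 and 2261 CPM in the lymphomas. The growth factor receptor Csf1r went from 29.9, 33.8 and 30.2 CPM to 114, 144 and 89 CPM (1.89 ± 0.34), the scavenger receptor Msr1 rose by 3.12, and Marco, another, by 5.93. Cd163, a mark of resident macrophages, was not called (-0.23). Chemokine genes gave 10 higher and 3 lower of 27 (6 lower without lymphoma 2). Cxcl13, which draws B cells, went from 3.15, 2.59 and 2.12 CPM to 306, 220 and 94.5 CPM (6.30 ± 0.63), and Cxcl12, a stromal chemokine, from 325, 284 and 282 CPM to 43.6, 76.9 and 117 CPM (-1.91 ± 0.41).

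B cell and plasma cell genes depended on the lymphoma. Summed B cell markers were at 109, 102.5 and 105 CPM in the controls and at 348, 537 and 50.5 CPM in the lymphomas, with lymphomas 1 and 2 above and lymphoma 3 below every control. Of 14 markers 7 rose and 0 fell, and the count was 3 when control 1, 2 or 3 or lymphoma 1 or 2 was left out and 13 without lymphoma 3. Cd79a, a chain of the B cell receptor, was at 37.8, 64.6 and 2.99 CPM in the lymphomas and 5.63 to 6.71 CPM in the controls, and its call was lost without any 1 library other than lymphoma 3 (adjusted p from 0.0576 to 0.115). Jchain, which joins antibody units, was at 80.7, 64.1 and 76 CPM in the controls and 870, 2007 and 183 CPM in the lymphomas (3.79 ± 0.91, adjusted p = 0.00817), the same order of lymphomas. The plasma cell gene Sdc1, by contrast, was even, at 17.8, 18.2 and 17.1 CPM and 57.9, 64 and 51.8 CPM (1.71 ± 0.16).

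Extracellular matrix genes gave 16 higher and 1 lower of 38 (median 0.94). Bgn, a proteoglycan, went from 39.8, 38.1 and 36.3 CPM to 248, 437 and 437 CPM (3.30 ± 0.32), and the matrix gene Fbln1 from 8.72, 8.98 and 6.89 CPM to 96.8, 166 and 252 CPM (4.39 ± 0.39). Col1a1, of fibrillar collagen, was at 24.7, 29.6 and 27 CPM and 70.7, 116 and 478 CPM (3.03 ± 0.74). Lymphoma 3 was the highest for Col1a1 and for Fbln1. Of 15 fibroblast and pericyte markers, 5 rose and 0 fell by edgeR (median 0.91), with 1 lower by DESeq2 and by voom. Their sums were at 3308 to 3405 CPM in the controls and 2327, 2832 and 4701 CPM in the lymphomas. Most of each sum came from 1 marker, Thy1, the T cell surface protein named above. Thy1 was at 2906, 2912 and 2998 CPM in the controls and 1615, 1567 and 2433 CPM in the lymphomas. The lower sums of lymphomas 1 and 2 thus follow Thy1. The part of these markers in the matrix result was not tested. Endothelial sums were at 221 to 265 CPM in the controls and 319 to 438 CPM in the lymphomas, with 4 of 15 risen (1 without control 1, and 2 without control 2 or lymphoma 2).

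**Figure D4:**
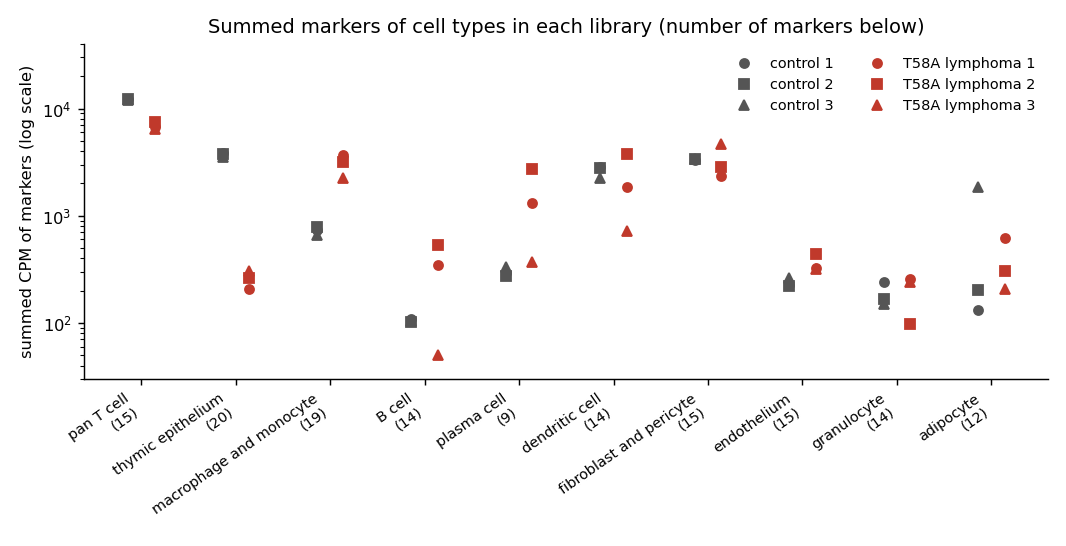
Summed CPM of the markers of 10 cell types (number of markers in brackets) in each library, on a log scale, with controls in grey and T58A lymphomas in red, and circles, squares and triangles for libraries 1, 2 and 3. Thymic epithelium and macrophages separate the groups in opposite directions, B cell markers place lymphoma 3 below and the other two above the controls, and control 3 stands out in adipocyte markers at 1836 CPM. Thy1 makes up most of every fibroblast and pericyte sum, and Tcf7 most of every pan-T cell sum of the lymphomas.

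Position in the genome was examined next, over genes at 10 CPM or more in all 6 libraries. For each chromosome the median log2 difference of its genes from the control mean was taken in each lymphoma. On chromosome 6, with 413 such genes, the medians were 0.43, 0.21 and 0.40, and 37.3% of the genes rose while 8.47% fell. Chromosome 15, which holds Myc, had medians of 0.05, 0.19 and 0.54 over 361 genes, so that lymphoma 3 stood apart, with 32.4% risen and 8.31% fallen. Chromosome 18 had 0.20, 0.20 and 0.23 over 235 genes (33.6% risen, 13.2% fallen). It also holds 22 risen protocadherin gamma genes that share their last exons. Those of them among the 235 are not separate measurements, and their part in these values was not tested. On the chromosomes other than 6, 15 and 18, between 12.7% and 27.4% of such genes rose and between 12.2% and 25.4% fell. In lymphoma 3, 72.6% of the chromosome 15 genes lay above the control mean, against 52.6% in lymphoma 1. For chromosome 6 these shares were 70.9%, 64.6% and 71.9%. On the low side were chromosome 7 (medians -0.10, -0.09 and -0.11), chromosome 17 (-0.10, -0.03 and -0.20) and, in lymphomas 2 and 3 only, chromosome 8 (-0.001, -0.11 and -0.18). Upward medians of similar size were found for chromosome 13 (0.145, 0.067 and 0.134) and chromosome 14 (0.115, 0.107 and 0.131).

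**Figure D5:**
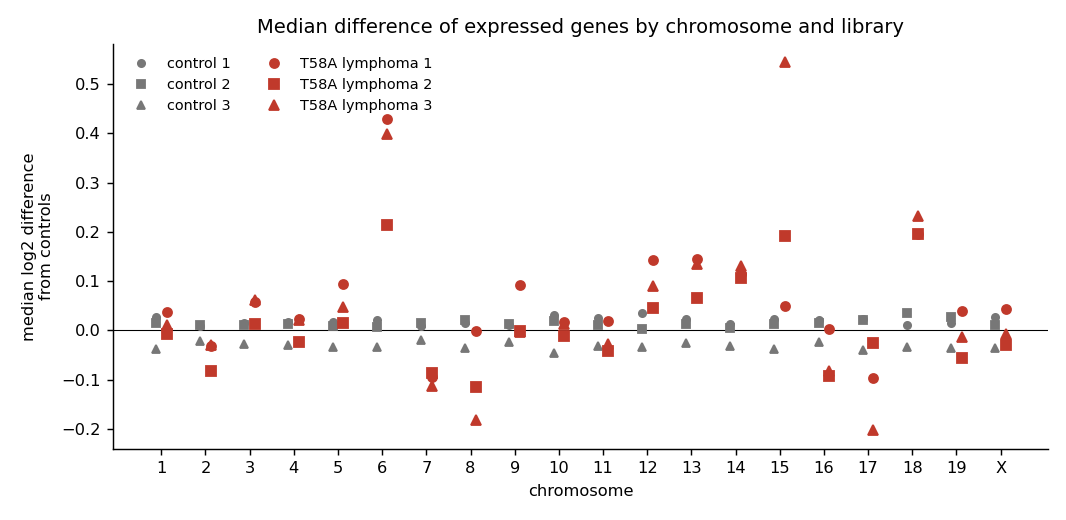
Median log2 difference from the control mean of genes at 10 CPM or more in all 6 libraries (vertical axis), by chromosome (horizontal axis) and library, with controls in grey, T58A lymphomas in red, and circles, squares and triangles for libraries 1, 2 and 3. Controls lie close to 0 throughout; chromosome 6 is raised in all 3 lymphomas (0.43, 0.21 and 0.40) and chromosome 15 most in lymphoma 3 (0.54).

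Some called genes lay side by side. The longest run was of 22 risen protocadherin gamma genes on chromosome 18, whose transcripts share their last exons and are therefore not separate measurements. On chromosome 6, 8 neighbours from Tfpi2 to Ppp1r9a, at chr6:3912595-5115661 in mm9, all rose, including Peg10, Sgce, Col1a2 (2.78) and Bet1 (1.04). Ppp1r9a, at 2.99, 2.42 and 4.16 CPM in the controls and 22.1, 26.7 and 104 CPM in the lymphomas, rose by 3.99. The calls of Tfpi2 and of Casd1, another of the 8, were lost without any 1 control, and that of Casd1 also without lymphoma 3. On chromosome 5, 12 neighbours at chr5:20878491-22056149 rose, among them Fam185a, from 10.3, 9.86 and 10.5 CPM to 817, 210 and 112 CPM (5.21 ± 0.99). Of the kallikrein cluster on chromosome 7, 8 neighbouring genes fell at chr7:50945788-51396980, of which Klk1b26 and Egfbp2 overlap, have identical counts in all 6 libraries and are 1 measurement. Klk8, a secreted protease, was at 20.1, 19.8 and 13.6 CPM in the controls and 1.21, 3.2 and 0.633 CPM in the lymphomas (-3.40), and Klk7 and Klk6 had no read in any lymphoma. In the Hoxa cluster 6 neighbours fell at chr6:52115673-52168572, among them Hoxa5 (-3.11 ± 0.70) and Hoxa7 (-4.88 ± 0.92). Levels were low, Hoxa7 being at 11, 4.19 and 3.47 CPM in the controls and 0.289, 0.32 and 0 CPM in the lymphomas. The 6 include Hoxaas2 and Mira, and whether these share reads with the Hoxa genes was not tested. Chromosome 6, whose medians were raised, thus also held a run of fallen genes.

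The lymphomas differed among themselves more than the controls did. Among 10215 genes averaging at least 10 CPM, the range over 3 libraries reached 4-fold in 61 genes of the controls (0.597%), of which control 3 set 59, and in 456 genes of the lymphomas (4.46%). The median range was 0.15 log2 units in the controls and 0.41 in the lymphomas. Lymphoma 3 was the outlying library most often, low in 128 of the 456 genes and high in 78. Slpi, a secreted protease inhibitor, was among the most scattered, at 7.43, 7.77 and 3.29 CPM in the controls and 736, 1763 and 60.1 CPM in the lymphomas (7.12 ± 1.53, adjusted p = 0.00447). Ctse, a cathepsin, was at 12, 9.92 and 95 CPM and 198, 651 and 13.5 CPM (2.88 ± 1.21, adjusted p = 0.0854), and its call was gained without control 3 (4.71, adjusted p = 0.032) or lymphoma 3 (3.44, 0.0276).

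Xist, the RNA that silences one X chromosome in females, was at 4.9, 2.92 and 2.6 CPM in the controls and 1294, 61.8 and 44.8 CPM in the lymphomas (7.07 ± 2.69, adjusted p = 0.0598). The Y-linked gene Ddx3y was at 143, 151 and 156 CPM in the controls and 6.24, 154 and 158 CPM in the lymphomas. Lymphoma 1 was thus high in Xist and low in Ddx3y, the reverse of the other 5 libraries, and without it the Xist log2 fold change was 3.94. The labels do not state the sex of the animals, and the part of sex in the results was not tested. Lymphoma 1 was also the highest in H19 and Igf2.

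Against S62A lymphoma, the thymic lymphoma of mice with another MYC mutant, T58A lymphoma differed in 492 genes (3.15%), 358 higher (2.29%) and 134 lower (0.859%). Of the genes named above and called in this comparison, Bmp4 differed most, 4.96 log2 units higher in T58A lymphoma, followed by Pax1 (3.26) and Bgn (1.24). Notch1 was 1.01 higher in T58A than in S62A lymphoma, Ifngr1 1.07 and Psmb9 1.07. Stra6 was 1.09 lower and Arhgap29 1.22 lower. The title codes of the 3 S62A lymphomas carry a further letter, I, so that the mutant and the letter cannot be told apart.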

How the data were processed

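Counts and FPKM values per transcript were deposited for each library. Per the submitters' processing notes, base calls were converted with bcl2fastq 2.20.0.422, reads aligned with Bowtie 1.0.0 to the mm9 build and DESeq2 used. The counting tool, its use of strand and its treatment of reads with several positions are given by none of the sources used, so antisense, overlapping and near-identical genes are uncertain. The deposited counts are whole numbers of reads for 36141 transcripts; FPKM was computed by the authors and used only for levels per length. Of 24478 symbols, 6148 had several transcripts and the one with the most reads over the 12 libraries was kept. Coordinates assume starts counted from 0 in the files and are printed counting from 1.

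Counts were filtered (filterByExpr, minimum count 10), scaled by TMM and fitted with edgeR 4.0.16 in R 4.3.3 (quasi-likelihood test, 1 coefficient per group, 12 libraries, Benjamini-Hochberg over 15606 genes, threshold 0.05); the fit was tested on simulated data. CPM values are TMM-scaled. SE is the absolute log2 fold change over the square root of F. Permutation tests are exact and two-sided. Alternatives were other scalings, filters and transcripts, DESeq2 1.42.0, limma 3.58.1 (voom), the 6 libraries alone, libraries of title code H, each library left out, and, added after seeing the data, Rn45s left out.

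The genes and lists were chosen with earlier results of these data known. Genes were named by a rule: Myc, the 15 risen and 15 fallen with the largest CPM difference, the 10 and 10 with the smallest adjusted p, the 5 genes highest in one group and at 0 in the other, 2 risen and 2 fallen per list, the 5 most scattered among lymphomas and the 10 most abundant; some are left out for space, and a few are not reported here. Chosen after their values were seen were Apcdd1, Arpp21, B2m, Barx1, Bcat1, Bcl11b, Bet1, Bmp4, Cad, Casd1, Cd163, Cd4, Cd79a, Cdkn2c, Cdkn2d, Cdx2, Col1a1, Col1a2, Csf1r, Ctnnb1, Ddx3y, Dll4, Egfbp2, Fam185a, Fas, Foxn1, Gapdh, Gars, Got1, Grb10, Hoxa5, Hspa5, Itgal, Jag2, Klk1b26, Klk6, Klk7, Klk8, Krt14, Lamp2, Lat, Lef1, Lgr5, Lipa, Lrp5, Ltv1, Marco, Max, Mki67, Mrto4, Msr1, Nfatc1, Npm1, Pfn1, Ppp1r9a, Psmb10, Psmb8, Rfng, Rn45s, Rplp1, Stat4, Tap1, Tbata, Tfeb, Tfpi2, Tsr1, Usp18, Wls, Zap70 and Znrf3.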

Additional observations from a re-analysis of the deposited data

Results flagged for a closer look

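Of the genes named in the report, 11 differed between T58A and S62A lymphoma in a direct test of the difference (edgeR's quasi-likelihood test, adjusted over all genes). The following were higher in T58A lymphoma: the log2 difference was 4.96 for Bmp4, 3.26 for Pax1, 1.24 for Bgn, 1.07 for Ifngr1, 1.07 for Psmb9, 1.01 for Notch1, 0.99 for Cd63 and 0.68 for Itsn1. Lower in T58A lymphoma were Arhgap29 at -1.22, Stra6 at -1.09 and Tpi1 at -0.61. Notch1, Psmb9, Pax1 and Ifngr1 had fallen and Arhgap29, Stra6 and Tpi1 had risen against control, so that T58A lymphoma lay between S62A lymphoma and control for these genes. The 2 groups of lymphomas carry different letters in their title codes, and the part of that difference was not tested.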

How the results depend on the processing

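The number of genes called (5646) lay between 5445 and 7444 over the other scalings, filters, transcripts and tools with an adjusted p of 0.05. Leaving out each library in turn gave 3865 to 5123. An adjusted p of 0.01 gave 3180 (1696 higher, 1484 lower, 2134 at least 2-fold). The 4 libraries of title code H gave 1320 (622 higher, 698 lower, 1149 at least 2-fold), a comparison with 1 control whose spread is assumed to equal that of the other groups. DESeq2 called 1734 genes between T58A and S62A lymphoma, against 492. The scalings moved the median of all genes by at most 0.03. With library size alone, the median of chromosome 18 was 0.15 in lymphoma 1 and 0.17 in lymphoma 2. Of 173 named genes that were called, 161 kept their call and direction without each single library, and 103 did so with title code H alone. Depth limits genes under 1 CPM, of which few were called. No paired analysis was possible because the replicate numbers follow accession order and pair nothing across the groups.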
